A study of Caenorhabditis elegans with 8 samples.

Results

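Worms kept weightless in orbit were set against worms spun at 1g in the same spacecraft. The members are 4 of the 8 microRNA (miRNA) arrays of the series, chosen by their labels as static flight or 1g centrifuge flight, and paired by strain. N2 is wild-type Bristol. LS292 has the genotype dys-1(cx18) I, with a mutant worm dystrophin gene, and is the only dys-1 line used. All flight worms were loaded as dauer larvae, about 100000 of them, onto fresh nematode growth medium, flew 16.5 days on Shenzhou-8 at 23 °C and were collected 7 h after landing. Static slots combined microgravity with a radiation dose of 1.92 mGy, whereas the centrifuge slot restored 1g and received 2.27 mGy. Gravity, dose and spinning itself therefore moved together and cannot be told apart. The other 4 arrays, a control held in a static BIOBOX slot on the ground and a control that never travelled to the launch site, enter here mainly through the detection rule, the normalization and the shared estimate of spread. The labels do not state the stage at collection, and whole worms were extracted, so fewer cells of a type and less RNA per cell cannot be told apart.

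A miRNA is a short RNA that guides a repressor complex to messenger RNAs, mostly by pairing of its seed, a stretch near its 5′ end, with sites in their 3′ untranslated regions. MiRNAs that share a seed form a family with overlapping targets. In C. elegans the let-7 and lin-4 families time the passage from one larval stage to the next, and members of the let-7 family are also tied to the dauer decision. The miR-51 family is needed in the embryo, where it acts in attachment of the pharynx. The miR-58 family, related to fly bantam, is among the most abundant in worms and acts on TGF-β signalling, the pathway that also controls dauer entry.

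Of 156 probes with a C. elegans name, 20 reached a spot-median intensity of 50 or more on at least 2 of the 8 arrays, and these 20 are described. Spot-median intensity is the median, over the 4 spots of a probe, of foreground minus local background, in arbitrary scanner units. Levels of different probes are not compared, since each probe binds with its own strength. On the flight arrays, 11 probes reached 50 on N2 static, 15 on LS292 static, 19 on N2 1g and 13 on LS292 1g. Among the 20 miRNAs, 9 reached it on both static arrays and 12 on both 1g arrays. Let-7, miR-1823, miR-237, miR-257, miR-55, miR-56 and miR-84 did so on all 4, and miR-796 on none.

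The N2 static array stands apart in background. The 90th percentile of its local background was 599, against 152 on LS292 static, 224 on N2 1g and 87 on LS292 1g. Spots lying more than 50 below their own background made up 23.7% of that array, against 6.02% to 10.5% of the others. Each strain and condition had 1 array, so a p-value over both strains measures only the spread between these arrays. An exact permutation test of 2 arrays against 2 that ignores the strain pairs cannot go below 0.333. A test that keeps the pairs has fewer arrangements and a higher limit.

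**Figure D1:**
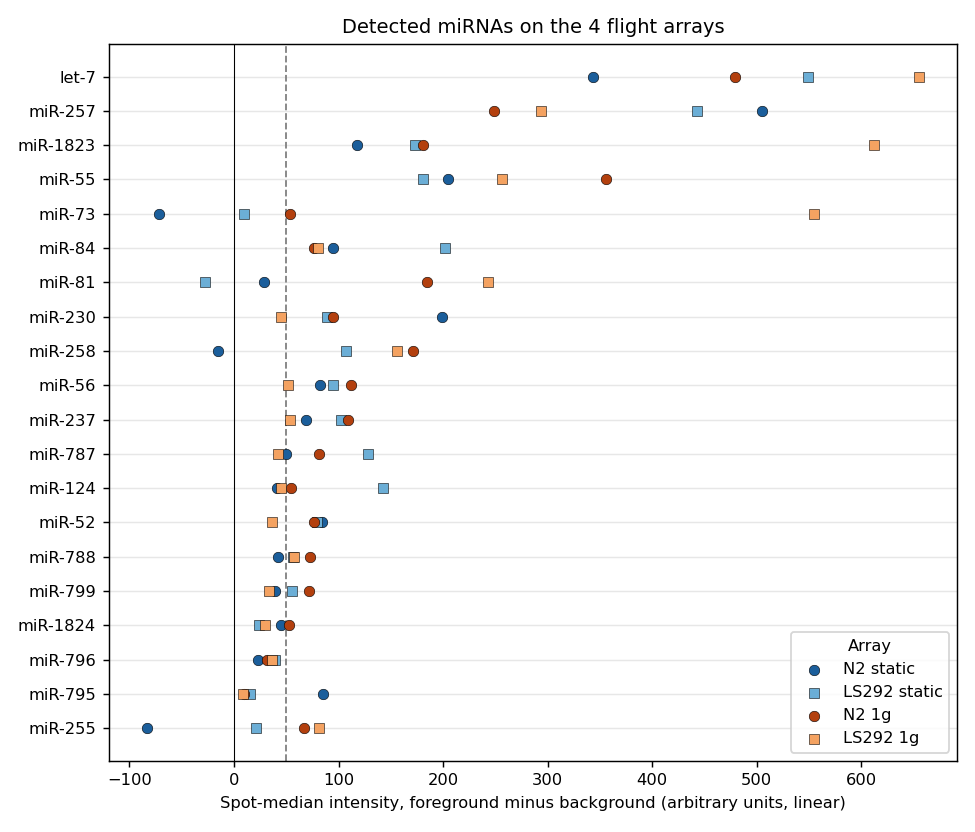
Spot-median intensity (foreground minus local background, arbitrary units, linear axis) of the 20 detected miRNAs on the 4 flight arrays, with circles for N2, squares for LS292, blue for static and orange for 1g. The dashed line is the minimum of 50. Both blue points of miR-257 lie to the right of both orange points (443 and 505 against 248.5 and 294), and both blue points of miR-81 to the left (-28 and 28.5 against 185 and 242.5).

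MiR-257 was the miRNA whose difference passed the test. Its spot median was 505 in N2 and 443 in LS292 in static flight, and 248.5 and 294 on the centrifuge. Both static arrays thus lay above both 1g arrays. The 4 spots overlapped between the conditions in each strain, running from 213 to 540 against 158 to 343 in N2 and from 226 to 745 against 163 to 512 in LS292. In N2 the static level was 2.03 times the 1g level with no scaling between arrays, 2.46 times with the authors' constants and 2.10 times with scaling to the bright unnamed probes. In LS292 the same ratios were 1.51, 2.20 and 1.19. The ratio stayed above 1 on these 3 scales and its size in LS292 did not hold. On both 1g arrays the authors' constant is the spot median of miR-257 itself, so its value there is 1 by construction and these ratios are no independent support. The authors' constants are the array medians of the 5 worm probes that reach 50 on every array of the series, and the unnamed scaling uses 158 unnamed probes that do the same.

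The fit across all 20 miRNAs (limma on quantile-normalized log2 intensities, strain and condition as terms, all 8 arrays) gave miR-257 a difference of log2 0.77 (SE 0.11, adjusted p 0.0095), static over 1g. It was the only 1 of 20 past an adjusted p of 0.05, which is 5.00%, and the only 1 with an unadjusted p under 0.05. With no filter on dim probes it was again the only call, among 156 worm probes (0.641%). Quantile normalization replaces each intensity by a value set by its rank on the array. The top value, 9.08, belonged to miR-257 on both static arrays and to let-7 on both 1g arrays, where miR-257 took 8.39 in N2 and 8.23 in LS292. Over the whole series miR-257 held that value on 6 arrays, so almost no spread entered its standard error. By spot median miR-257 was the brightest worm probe on 3 arrays and let-7 on 5, including LS292 static, where let-7 read 548.5 and 1 of its 4 spots 30. With the median of the 4 spots in place of their mean the difference of miR-257 was 0.63 (SE 0.29, adjusted p 0.487). The call ended without the N2 static array (0.80, adjusted p 0.0826) and without the LS292 static array (0.74, adjusted p 0.106), fits in which the lone static array is assumed to vary like the others. Fitted without the N2 1g array the same difference was 0.85, and without the LS292 1g array 0.69. There the lone 1g array is likewise assumed to vary like the others, and miR-257 held the same top value on the 6 arrays outside 1g. These fits are therefore no support for the call. Over 18 other processing settings the difference of miR-257 stayed positive, from 0.41 to 1.38, and passed in 6, with limma adjusted p from 4.28e-06 to 0.758. All 6 kept the mean of the spots and the quantile step over worm probes. They changed only the filter, the prior, the strain term or the normexp offset, so they are not independent of the reported fit. With another spot summary, normalization or background method, or with the 4 flight arrays alone, miR-257 did not pass.

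**Figure D2:**
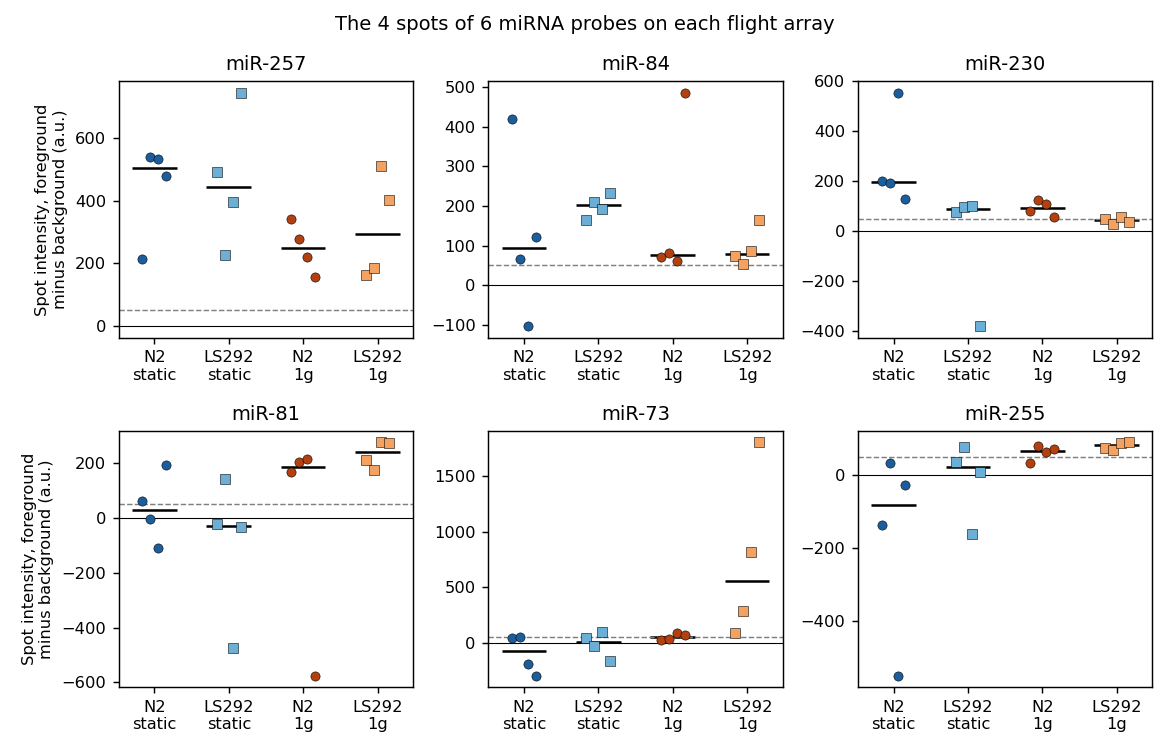
The 4 spots of 6 miRNA probes on each flight array, as foreground minus local background in arbitrary units on a linear axis. Bars mark the median of the 4 spots and the dashed line the minimum of 50. Spots of miR-257 overlap between static and 1g in both strains, those of miR-230 separate in N2 (lowest static spot 131, highest 1g spot 124), and those of miR-81 separate in LS292 (highest static spot 144, lowest 1g spot 175).

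MiR-81, the only detected member of the miR-58 family, had lower spot medians in static flight in both strains. In static flight its spot medians were 28.5 (N2) and -28 (LS292), below the minimum of 50. On the centrifuge they were 185 and 242.5. The 2 groups did not overlap. Against a static spot median taken as 50, that at 1g was at least 3.70-fold higher in N2 and 4.85-fold in LS292 with no scaling. With the authors' constants these bounds were 3.05-fold and 3.32-fold, and with the unnamed probes 3.58-fold and 6.12-fold. They hold for spot medians only. N2 static spots with local background of 63 and 59 read 62 and 194, and the LS292 static spot with 51 read 144. MiR-81 was the 1 miRNA of 20 (5.00%) whose spot medians, raised to 50, were 2-fold or more apart in both strains on all 3 scales. In LS292 its 4 static spots ran from -473 to 144 and its 1g spots from 175 to 276, with no overlap, and in N2 the spots overlapped (-109 to 194 against -576 to 216).

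The fit did not call miR-81, with a log2 difference of -0.29 (SE 0.25, limma adjusted p 0.687). On that scale the N2 pair did not differ, at 7.80 on both arrays, and LS292 differed by -0.58. Its difference was -0.70 without the N2 static array and 0.12 without the LS292 static array. With spot medians in place of quantile values, floored at 16 and scaled by the authors' constants, it fell by 2.90 on the log2 scale in static flight (SE 0.79, limma adjusted p 0.0055), and it also passed with background subtraction and with scaling to unnamed probes. Raising the floor from 16 to 50 left -1.67 (SE 0.44, adjusted p 0.123). The size of these fitted values thus depends on what a static level below background is set to.

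The foreground of miR-81, before any background was taken off, was also below on both static arrays. It was 155 in N2 and 161 in LS292 in static flight, and 232 and 300.5 on the centrifuge. Local background around its spots went the other way, at 100.5 and 136 against 49.5 and 61. Its lower static value thus holds both a lower foreground and a higher subtracted background. With foreground alone, quantile normalized, the difference was -0.82 (SE 0.47, limma adjusted p 0.758).

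Among the other members of the miR-58 family, 4 were on the array and none was detected. MiR-80 reached at most 8 and miR-82 at most 35 on the flight arrays, and the highest value of miR-58 itself was 11. The gene mir-82 is the nearest miRNA gene to mir-81, within 5000 bases on chromosome X in the RefSeq gene table of WBcel235. A detected miRNA thus had a close neighbour that stayed below 50 on all flight arrays.

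MiR-73, of the miR-72 family, was high on a single array. Static spot medians were -71.5 (N2) and 10 (LS292), and those at 1g 54 (N2) and 554.5 (LS292). The LS292 1g array stood alone, and its 4 spots read 90, 286, 823 and 1804. In LS292 the 1g spot median was at least 11.1-fold higher with no scaling and at least 7.60-fold with the authors' constants. These bounds hold for spot medians only, and the LS292 static spots with local background of 54 and 52 read 47 and 98. In N2 the bound was only 1.08-fold with no scaling, with none by the authors' constants. The fit with limma gave -0.59 (SE 0.25, adjusted p 0.559). The fitted difference was -1.04 without the N2 1g array and -0.15 without the LS292 1g array. Each of these fits rests on 1 array at 1g, which is assumed to vary like the others. With spot medians floored at 16 and scaled by the authors' constants miR-73 fell by 3.02 (SE 0.79, limma adjusted p 0.0055). Raising that floor to 50 left -1.38 (limma adjusted p 0.345). MiR-74, whose gene lies within 5000 bases of mir-73, reached at most 7.5 on the flight arrays.

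MiR-255 was lower in static flight in both strains. In static flight the spot median was -83 in N2 and 21 in LS292, and at 1g 66.5 and 81. Both static spot medians were below 50, so those at 1g were at least 1.33-fold higher in N2 and 1.62-fold in LS292 with no scaling. With the authors' constants these bounds were 1.10-fold and 1.11-fold. Its foreground did not separate the conditions, at 138 and 127.5 in static flight against 119.5 and 139 at 1g, while its local background on the static arrays was 221 and 71.5 against 49.5 and 59.5. The fit gave -0.20 (SE 0.13, limma adjusted p 0.619), and the sign turned to 0.014 with no normalization and 0.031 with median scaling.

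**Figure D3:**
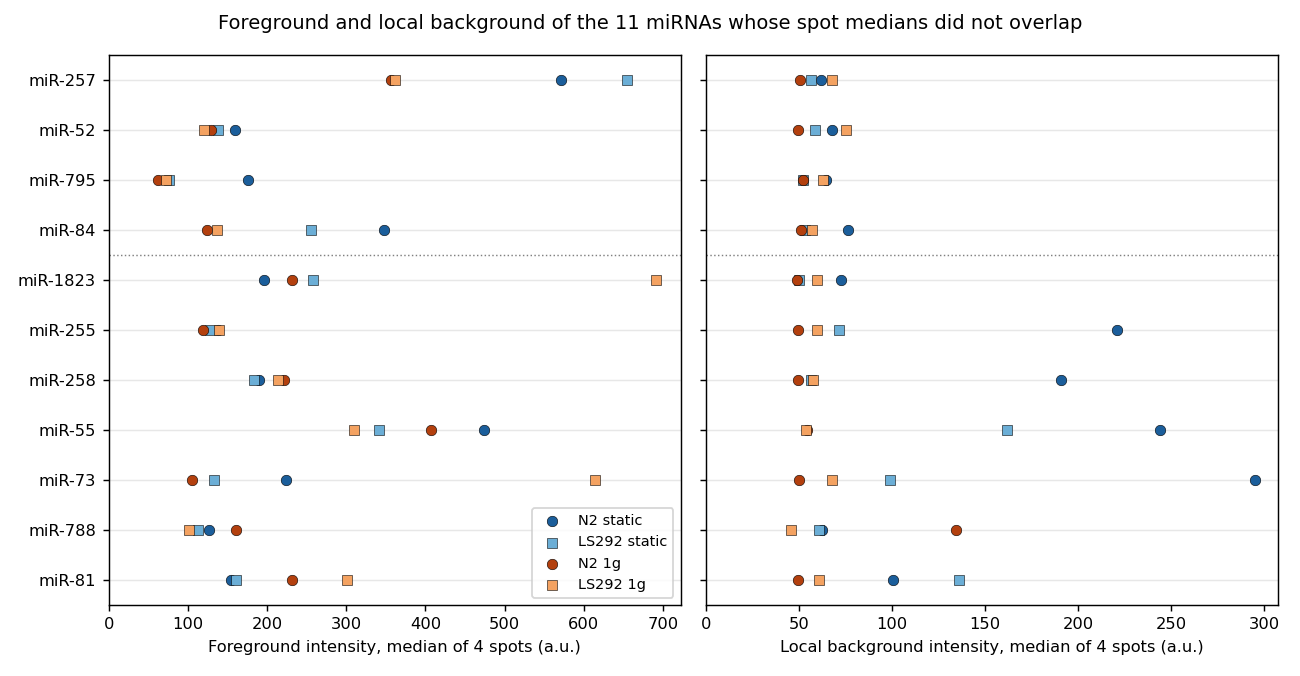
Foreground (left) and local background (right) intensity, medians of 4 spots in arbitrary units on linear axes, for the 11 miRNAs whose unscaled spot medians did not overlap between static and 1g. Above the dotted line are the 4 that were higher in static flight, below it the 7 that were lower. Static background points of miR-255, miR-55, miR-73 and miR-81 lie right of their 1g points (221 and 71.5 against 49.5 and 59.5 for miR-255), and those of the upper 4 do not.

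Without scaling, 4 of 20 miRNAs (20.0%) lay higher on both static arrays than on both 1g arrays, namely miR-257, miR-52, miR-795 and miR-84. Lower on both were 7 (35.0%), namely miR-1823, miR-255, miR-258, miR-55, miR-73, miR-788 and miR-81. Among 392 detected unnamed probes the same rules took 60 (15.3%) and 56 (14.3%). With the authors' constants the miRNA counts became 5 higher (25.0%) and 3 lower (15.0%), beside 32.9% and 8.42% of unnamed probes. Scaling to the unnamed probes gave 3 higher (15.0%) and 9 lower (45.0%), beside 13.3% and 22.7%. Whether more miRNAs were higher or lower in static flight thus turned with the scaling. On all 3 scales miR-257, miR-795 and miR-84 stayed above, and miR-255, miR-73 and miR-81 below. For miR-795 this orders values far below 50 in LS292 (15.5 static, 10 and 9 at 1g) and gives no level.

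Local background was higher on both static arrays for 10 of the 20 miRNAs. These included 4 of the 7 lower miRNAs (miR-255, miR-55, miR-73 and miR-81) and 0 of the 4 higher ones. In foreground alone, 5 miRNAs lay above on both static arrays (25.0%, miR-230, miR-257, miR-52, miR-795 and miR-84) and 2 below (10.0%, miR-258 and miR-81). Among the unnamed probes local background was higher on both static arrays for 160 (40.8%) and lower on both for 0 (0.00%), foreground was above for 112 (28.6%) and below for 20 (5.10%). Leaving out spots whose local background exceeded 3 times the array median gave fitted differences of -0.12 for miR-255, 0.33 for miR-55, -0.51 for miR-73 and -0.41 for miR-81, none past the threshold (limma adjusted p 0.451 to 0.586). MiR-55 thus turned sign, the values of miR-255 and miR-73 came closer to 0 and that of miR-81 lay further from it.

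The let-7 family had 3 detected members of 7 on the array, and they did not share a direction. Let-7, which triggers the last larval transition, read 343 in N2 and 548.5 in LS292 as spot medians in static flight, and 479 and 655 at 1g. With no scaling the spot median of each strain was lower in static flight, yet the groups overlapped because LS292 was above N2 in both. Foreground of let-7 was higher in static flight in N2 (594.5 against 532.5) and lower in LS292 (645 against 714.5). Local background was 191.5 in N2 and 71 in LS292 in static flight, against 52 and 59.5 at 1g. The static level was 0.716 of the 1g level in N2 and 0.837 in LS292 with no scaling, and in LS292 this turned to 1.22 with the authors' constants. The fit for let-7 gave -0.41 (SE 0.22, limma adjusted p 0.619), and with the authors' constants on spot medians it was 0.042.

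MiR-84, a let-7 relative that acts in the seam and epidermis, had higher spot medians in static flight. Static spot medians of 94.5 in N2 and 201.5 in LS292 stood against 76.5 and 80 at 1g. The groups did not overlap, though the N2 pair differed by less than the spots of either array (-103 to 420 and 60 to 486). The static level was 1.24 times the 1g level in N2 and 2.52 times in LS292 with no scaling, and 1.50 and 3.68 times with the authors' constants. On LS292 static that constant is the spot median of miR-84 itself (201.5), so its value there is 1 by construction. The ratio of 3.68 is therefore no independent support. In LS292 3 of the 4 spots at 1g, between 53 and 87, lay below all static spots, which ran from 165 to 233, and the highest 1g spot was also 165. The fit gave 0.20 (SE 0.19, limma adjusted p 0.687), with the N2 pair the other way on the quantile scale (-0.14 in N2, 0.53 in LS292). Fitted differences were positive under the other 18 settings, up to 1.23, with 0 calls, and -0.091 without the LS292 1g array.

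MiR-795, which the family list places with let-7, reached 50 on the N2 static array alone among the flight arrays. Its spot median was 85.5 there, 15.5 in LS292 static flight, and 10 and 9 at 1g. In N2 the static level was at least 1.71-fold higher with no scaling and at least 2.07-fold with the authors' constants, and in LS292 both arrays were below 50. On the N2 static array 3 spots lay between 71 and 122 and the fourth at -301. The remaining 4 family members did not reach 50 on a flight array.

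In the lin-4 family, lin-4 itself reached at most 7 on the flight arrays. Spot medians of miR-237, its relative, differed in direction by strain. N2 read 69 in static flight and 109 at 1g, and LS292 read 102.5 and 53.5. By spot median N2 was lower and LS292 higher in static flight on all 3 scales. The N2 static spots read 23, 121, -543 and 115, and that at -543 had a local background of 880. Those with local background of 58 and 61 read 121 and 115, within the N2 1g spots of 146, 116, 102 and -72. The fit gave -0.060 (SE 0.12, limma adjusted p 0.909).

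The miR-51 family had 3 detected members of 6. MiR-55 had spot medians of 205 in N2 and 181 in LS292 in static flight, and 355.5 and 256 at 1g. The groups did not overlap, and the 1g level was 1.73 times the static level in N2 and 1.41 times in LS292 with no scaling. With the authors' constants the direction turned in LS292, where the ratio was 0.969. Its foreground overlapped, at 474 and 341 in static flight against 407 and 310 at 1g, and its local background was 244 and 162 against 54.5 and 54. The fit gave -0.073 (SE 0.23, limma adjusted p 0.909).

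MiR-56, whose gene lies within 5000 bases of mir-55, differed from it in LS292 with no scaling. The spot median of N2 was 82 in static flight against 111.5 at 1g, and that of LS292 94.5 against 52. MiR-52, of the same family but on another chromosome, had 84.5 and 79.5 against 76.5 and 36.5, so that it lay above on both static arrays. In LS292 its static spots (61 to 100) did not overlap its 1g spots (-705 to 52). On the quantile scale the N2 pair of miR-52 went the other way (-0.18, against 0.41 in LS292). Family members thus differed in direction, and none passed the fit.

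MiR-230 was the only miRNA whose 4 spots separated in N2. In static flight the spot median was 199 in N2 and 88.5 in LS292, and at 1g 94.5 and 44.5. Each strain was higher in static flight, while the groups overlapped because LS292 static lay below N2 1g. The N2 static spots ran from 131 to 555 and the N2 1g spots from 56 to 124. Median local background around them was 359 in static flight and 54 at 1g, and that of the lowest static spot was 542. The N2 foreground of miR-230 was 547.5 against 149. The static level was 2.11 times the 1g level in N2 and at least 1.77 times in LS292 with no scaling, and 2.55 and at least 2.58 times with the authors' constants. With these constants miR-230, miR-257 and miR-81 were the 3 of 20 (15.0%) that were 2-fold or more apart in both strains, and miR-81 alone remained on the other scales. The fit gave miR-230 0.094 (SE 0.22, limma adjusted p 0.909), and on its scale LS292 went the other way (-0.10, against 0.29 in N2).

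**Figure D4:**
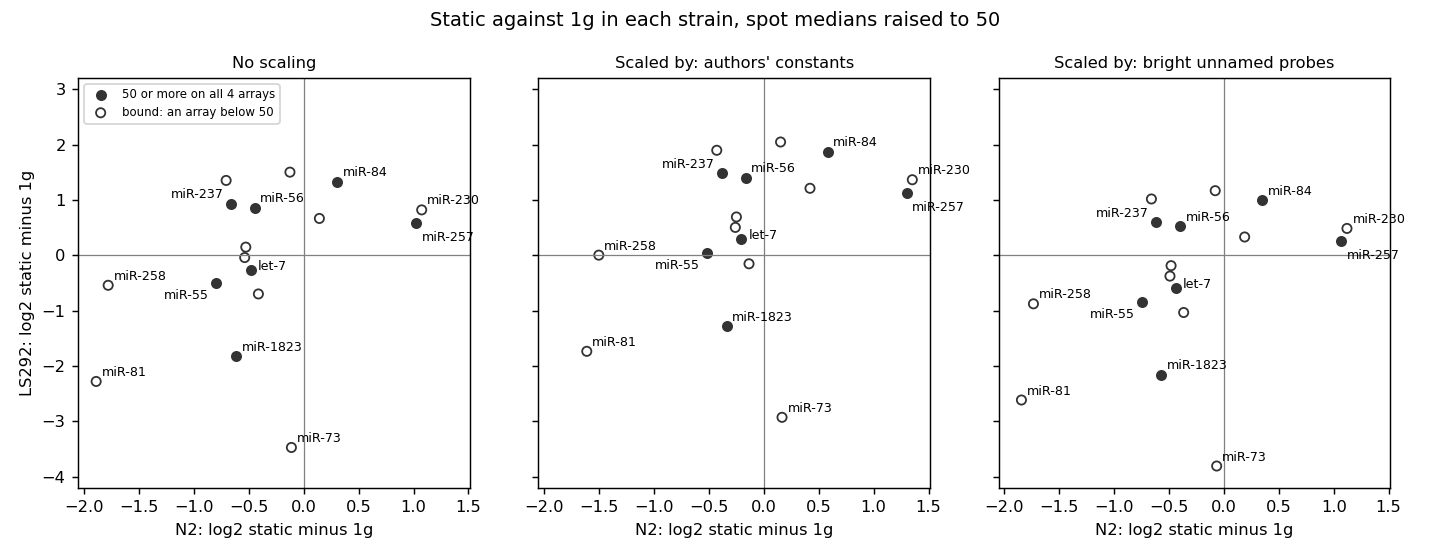
Log2 static minus 1g in N2 (horizontal) against the same in LS292 (vertical) for the 17 miRNAs with a ratio or bound in both strains, from spot medians raised to 50 and scaled in 3 ways. Filled points reached 50 on all 4 flight arrays, and open points are bounds. In the middle panel, scaled by the authors' constants, the points sit higher than in the right panel (miR-257 in LS292 at 1.14 against 0.26), and miR-81 stays in the lower left of all panels.

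The panels differ by a shift of every point, because the scalings set the static and 1g arrays apart by different amounts. The log2 ratio of static to 1g constants was -0.28 in N2 and -0.55 in LS292 for the authors' constants, and -0.046 and 0.34 for the unnamed probes. Any LS292 difference therefore moves by 0.88 on the log2 scale between them, and any N2 difference by 0.23. With values raised to 50, ratios or bounds in both strains and on all 3 scales lay above 1 for miR-230, miR-257, miR-52 and miR-84, and below 1 for miR-1823, miR-255 and miR-81.

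MiR-1823 was above the minimum on every flight array, with a lower static spot median in both strains on all 3 scales. N2 read 118 in static flight and 180.5 at 1g, and LS292 read 173 and 612. In LS292 the static spots ran from 119 to 222 and the 1g spots from 328 to 643, with no overlap. The N2 spots overlapped (-484 to 136 against 69 to 195), and the static spot at -484 had a local background of 954. The 1g level was 3.54 times the static level in LS292 and 1.53 times in N2 with no scaling, and 2.42 and 1.26 times with the authors' constants. The LS292 1g array was the highest of the series for miR-1823, with 80 on LS292 ground control and 234.5 on N2 ground control, above N2 1g. The fit gave -0.33 (SE 0.22, limma adjusted p 0.619).

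MiR-258 had a low spot median on the N2 static array. The spot median of N2 was -15.5 in static flight against 171.5 at 1g, and that of LS292 107 against 155.5. With no scaling the 1g spot median was at least 3.43-fold higher in N2 and 1.45 times higher in LS292. With the authors' constants it was at least 2.83-fold higher in N2 and 0.996 of the static one in LS292. The N2 bounds hold for spot medians only. N2 static spots with local background of 61 and 98 read 68 and 132, and the N2 foreground was 190 against 221. The median local background around the N2 static spots was 191, against 49.5 to 57.5 on the other flight arrays. The fit gave -0.32 (SE 0.30, limma adjusted p 0.687).

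MiR-124, a miRNA of sensory neurons, had its highest flight value on the LS292 static array. In static flight the spot median was 41.5 in N2 and 142 in LS292, and at 1g 54.5 and 44.5. In LS292 the static spots (77 to 230) lay above all 1g spots (29 to 62), and the level was at least 2.84-fold higher with no scaling and at least 2.25-fold with the unnamed probes. MiR-787 had the same shape, at 49.5 and 128 in static flight against 81.5 and 42, with 4 spots apart in LS292 (96 to 180 against 20 to 90). Neither passed the fit (0.084 and 0.11, limma adjusted p 0.874 and 0.788).

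MiR-788, miR-799, miR-1824 and miR-796 stayed between 23 and 72.5 on the flight arrays. MiR-788 had 42 and 56 in static flight against 72.5 and 57.5 at 1g, nearly equal in LS292. MiR-799 had 39.5 and 55.5 against 72 and 33. MiR-1824 (44.5 and 23.5 against 52.5 and 30) reached the minimum on N2 1g, and miR-796 (23 and 39 against 32 and 36.5) on no flight array. Their fitted differences lay between -0.038 and 0.018, with adjusted p from 0.909 to 0.938.

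A further 4 worm probes reached 50 on a flight array without being among the 20. These were miR-1822 (54.5, N2 static), miR-38 (58, LS292 static), miR-235 (52, N2 1g) and miR-271 (72.5, LS292 1g). Each did so on 1 flight array.

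Probes for defining miRNAs of several tissues read near or below background on every flight array. Each probe binds with its own strength, so a dim probe need not mean a scarce miRNA. MiR-1 of muscle reached at most 9, miR-60 of the intestine 0.5 and miR-228, a glial miRNA, 4.5. MiR-71 reached at most 3.5 and miR-34 at most 13.5, both tied to lifespan and stress in worms, and 0 of 8 members of the lifespan and stress list were detected. Of the tissue lists, only let-7 and miR-84 for epidermis and miR-124 for neurons had detected members. The stage at collection is not stated and let-7 family members time larval stages, so their levels do not give a tissue share. MiR-124 was below 50 on N2 static (41.5) and on LS292 1g (44.5). Let-7 and miR-84 summed to 437.5 in N2 and 750 in LS292 in static flight, against 555.5 and 735 at 1g. Let-7 alone gave 343 and 548.5 of these, against 479 and 655. The sums here add probes of unlike binding strength and give no tissue level. The whole epidermal list, which adds miR-48 and miR-241 near or below background, gave 195.5 and 739 against 566 and 749, with miR-241 at -231.5 on the N2 static array. The neuronal list had a summed level of 36 and 177 against 52 and 65.5. Of the 8 embryonic miRNAs of the miR-35 family none was detected, and their summed level was -288 and 43 in static flight against 7 and -15.5 at 1g. The part of these levels in the results above was not tested.

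Whether the difference between static and 1g flight was unlike in N2 and LS292 was asked with 1 added term, which left 2 residual degrees of freedom. Limma called 0 of 20 (0.00%), with 1 at an unadjusted p under 0.05. That was miR-73, at -0.95 for LS292 minus N2 (SE 0.35, limma adjusted p 0.654). MiR-84 had 0.67 (SE 0.31, adjusted p 0.654), which was -0.082 without spots of high background. A trended robust prior called miR-73 (adjusted p 0.0458). In the quantile-normalized values 3 miRNAs were higher and 5 lower in static flight in both strains, 11 were opposite and 1 was equal in a strain.

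**Figure D5:**
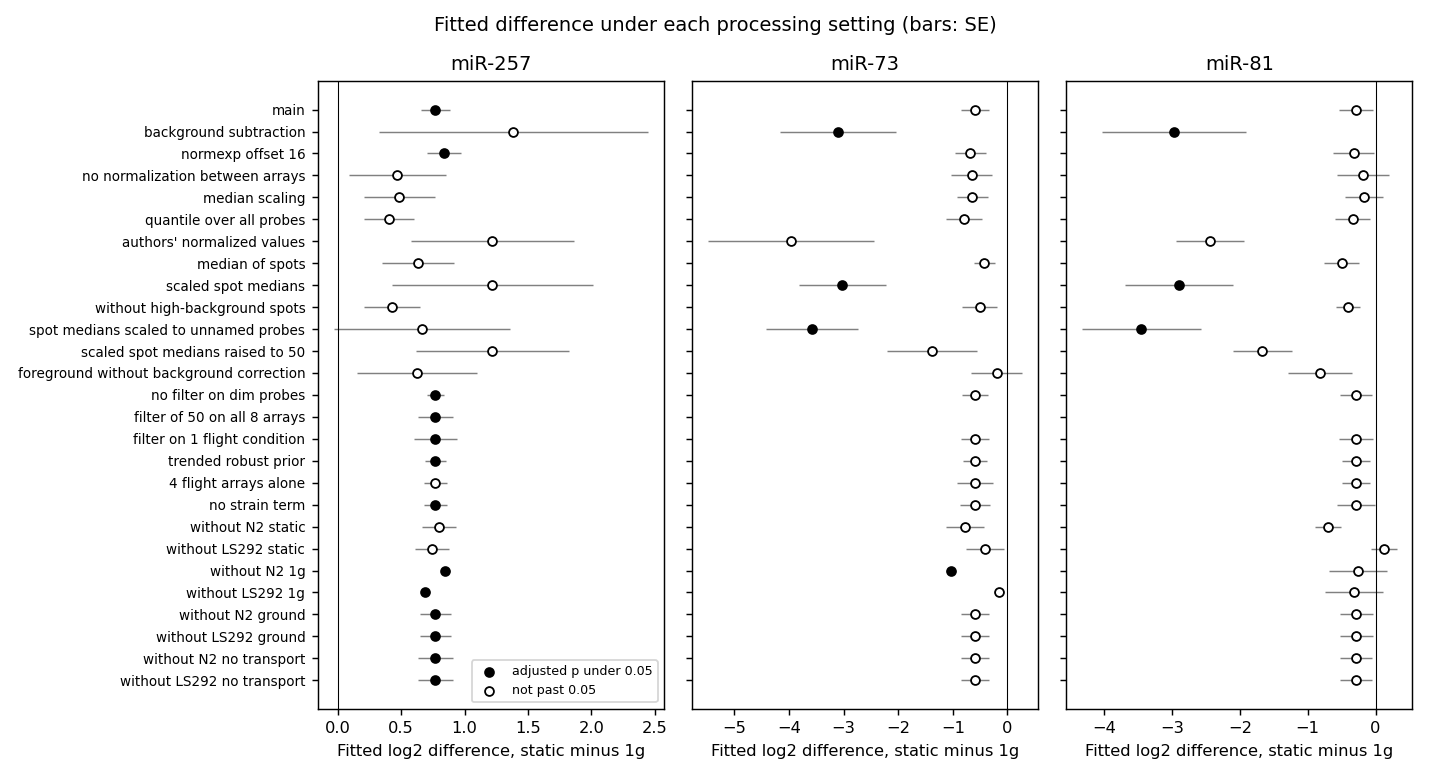
Fitted log2 difference, static minus 1g, of miR-257, miR-73 and miR-81 under each processing setting and with each array left out. Points are estimates, bars 1 SE, and filled points passed an adjusted p of 0.05. MiR-257 is filled at 0.77 in the top row and open with background subtraction (1.38), whereas miR-73 and miR-81 are filled with background subtraction (-3.10 and -2.98) and open in the top row (-0.59 and -0.29). A blank marks a setting that left the miRNA out. Rows without a flight array leave 1 array in that condition, so their fill is not read as a call.

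None of the processing settings called miR-257 together with miR-255, miR-73 or miR-81. Fits without a flight array are not counted here, since they leave 1 array in that condition. Background subtraction called miR-255, miR-73 and miR-81 (-3.06, -3.10 and -2.98, SE 1.06 each, limma adjusted p 0.0459 each) and left miR-257 at 1.38 (adjusted p 0.579). Scaling to the unnamed probes called the same 3, at -2.15, -3.58 and -3.45 (adjusted p 0.0435, 0.0126 and 0.0126), with miR-257 at 0.66 (adjusted p 0.684). In a fit of all 412 named and unnamed detected probes limma called 0 (0.00%), with 30 at an unadjusted p under 0.05.

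The authors' deposited table sets N2 at 1g over N2 in static flight and gives values for 17 of the 20 miRNAs. In the authors' deposited table miR-81 was 5.35 times as high at 1g, the only miRNA at 2-fold or more. The authors' deposited table put 3 at 2-fold or more lower at 1g, with ratios of 0.406 for miR-257, 0.392 for miR-230 and 0.0965 for miR-795. The miR-81 and miR-795 ratios rest on a spot median of 28.5 and of 10, which are below the minimum of 50. For LS292 the authors' deposited table used here holds 0 columns that compare the 2 flight arrays.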

How the data were processed

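Each array received 1 µg of Hy3-labelled total RNA in 1 colour (miRCURY kit), with 1 array per strain and condition. Per the labels, repeats were technical, without sample repeats. The authors deposited foreground intensity and foreground-minus-background intensity for 10080 spots per array, 4 per probe, per the file headers. Scanner, image software and probe sequences are not given here. The authors' deposited normalized values are a ratio, the spot median over 1 constant per array, recomputed here as 205, 201.5, 248.5 and 294 for N2 static, LS292 static, N2 1g and LS292 1g. These constants are the spot medians of miR-55 on N2 static, miR-84 on LS292 static and miR-257 on both 1g arrays. Each of these has a value of 1 there by construction. The authors' deposited table of fold changes holds ratios of the normalized values.

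Local background was foreground minus the deposited difference. Intensities were corrected with normexp (offset 50), the log2 values of 4 spots averaged, and arrays quantile normalized over 156 worm probes (limma 3.58.1, R 4.3.3). Differences came from limma with strain and condition as additive terms over 8 arrays, with 3 residual degrees of freedom, adjusted over 20 miRNAs by Benjamini-Hochberg at 0.05. Responses that differ between strains enter that residual. Every detected miRNA was named. A ratio against a spot median below 50 was computed against 50. It is a lower bound for spot medians only, and none is given where both were below 50. Of the 20 miRNAs, 19 matched the RefSeq gene table of WBcel235 by name, and miR-258 did not. The members, lists and tests were chosen with earlier results of these data known. Alternatives covered background correction, normalization, spot summary, filters, the prior, the model and arrays left out. Scaling to unnamed probes, the floor of 50 and foreground without correction were added after seeing the data. The number of arrays limits the precision.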

Additional observations from a re-analysis of the deposited data

Results flagged for a closer look

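By spot median miR-237 had opposite directions in the strains on all 3 scales. With the authors' constants its log2 static minus 1g was -0.38 in N2 and 1.48 in LS292, from 1 array each. The N2 static spots with local background of 58 and 61 read 121 and 115, within the N2 1g spots (-72 to 146). The limma interaction term for miR-237 was 0.28 (SE 0.25, adjusted p 0.763), so the difference did not pass.

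MiR-56 also had opposite directions by spot median on all 3 scales, at -0.17 in N2 and 1.41 in LS292 with the authors' constants. Its interaction term was -0.37, of opposite sign on the quantile scale (SE 0.30, limma adjusted p 0.763). On N2 1g 1 of its 4 spots read -662 with a local background of 1079, beside 140, 126 and 97. Without high-background spots its fitted difference went from 0.23 to -0.045. The part of that spot in the sign was not tested.

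Among probes with no name in the deposited file, 209 reached 50 on all 4 flight arrays, against 7 worm miRNA probes. What they target is not given in the sources used here.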

How the results depend on the processing

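The number of miRNAs past the threshold was 1 in the reported fit. It was 3 with background subtraction, 2 with scaled spot medians and 3 with scaling to unnamed probes. It was 0 with no normalization, median scaling, quantile normalization over all probes, the authors' values, the median of spots, high-background spots left out, scaled spot medians raised to 50, foreground alone and the 4 flight arrays alone, with 0 to 3 at an unadjusted p under 0.05. With 1 array left out at a time it ran from 0 to 2. The interaction count of 0 became 1 with a trended robust prior. The 8 miRNAs with the same direction in both strains became 14 with background subtraction, with no normalization, with median scaling and with scaling to unnamed probes. The 3 that were 2-fold apart in both strains became 1 with no scaling and 1 with unnamed probes.

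Signs turned under several settings, and the causes were not tested. With background subtraction they turned for miR-1824 (-0.23), miR-237 (0.72), miR-788 (0.43), miR-796 (-0.19) and miR-799 (0.20). With no normalization and with median scaling they turned for miR-237 (0.24 and 0.25), miR-255 (0.014 and 0.031), miR-788 (0.24 and 0.26) and miR-799 (0.23 and 0.24). Quantile normalization over all probes turned miR-1824 (-0.0043). The authors' values turned let-7 (0.042), miR-237 (0.55), miR-258 (0.14) and miR-799 (0.35), and scaled spot medians the same without miR-258. Raised to 50, they turned let-7 (0.042), miR-237 (0.55), miR-788 (0.12) and miR-799 (0.22). The median of spots turned miR-1824 (-0.0015), miR-237 (0.0082), miR-56 (-0.0040) and miR-799 (0.0046). Without high-background spots miR-1824 (-0.030), miR-55 (0.33), miR-56 (-0.045), miR-796 (-0.018) and the strain difference of miR-84 (-0.082) turned. Scaling to unnamed probes turned miR-1824 (-0.44) and miR-796 (-0.34). Foreground alone turned miR-237 (0.20), miR-55 (0.15), miR-56 (-0.32) and miR-796 (-0.15).

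Arrays left out in turn gave a range of -0.099 to 0.27 for miR-124, -0.036 to 0.061 for miR-1824, -0.14 to 0.33 for miR-230, -0.18 to 0.064 for miR-237, -0.16 to 0.39 for miR-52, -0.35 to 0.20 for miR-55, -0.080 to 0.059 for miR-788, -0.0048 to 0.32 for miR-795, -0.027 to 0.063 for miR-796, -0.15 to 0.078 for miR-799, -0.70 to 0.12 for miR-81 and -0.091 to 0.49 for miR-84. Arrays were paired by strain, a term of the reported fit, and the paired fit of the 4 flight arrays alone gave miR-257 0.77 (SE 0.088, adjusted p 0.211, limma). Signal over background limits the dim miRNAs: 13 of the 20 were below 50 on at least 1 flight array.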
